A study of Mus musculus with 4 samples.

Results

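The replication-dependent histone genes are the genes of the mouse histone clusters that supply the bulk of the histone proteins of new chromatin. They were taken as all gene names on the array that begin with Hist1h, Hist2h, Hist3h or Hist4h, which gave 47 genes of 31829 gene names. The 47 genes were covered by 51 probes, of which 50 could be given a current gene symbol, and they comprised 6 genes of linker histone H1, 14 of H2A, 11 of H2B, 8 of H3 and 8 of H4. The cells were mouse embryonic fibroblasts (MEFs), connective tissue cells grown from embryos, that either carried the tumor suppressor p53 (p53+/+, called WT) or lacked it (p53-/-). Cells of each genotype were left untreated or were treated with doxorubicin, a topoisomerase poison that breaks DNA. Each of the 4 conditions had 1 one-color Agilent array, all on 1 slide, so that no difference below had a replicate check and no test between conditions could be made. The dose, the length of treatment and the number of MEF lines behind the arrays are not given in the labels.

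In S phase, a cell needs a large supply of histones to package newly copied DNA, and the mRNAs of the clustered histone genes accumulate at that time and are degraded when DNA synthesis stops. Most of these mRNAs end in a short conserved hairpin instead of a poly(A) tail. Many of the genes can also give polyadenylated transcripts that run past the hairpin, a form described in cells that leave the cell cycle. In this study the RNA was reverse-transcribed from oligo-dT primers, which start on a run of A, so the values below describe histone RNA that this priming can copy.

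Signals were divided by the 75th percentile of the signals of their array, and the result is called the scaled signal. For each gene, the brightest probe was used. A gene was counted as measured in a comparison where its probe was well above background, by the scanner software, on the arrays compared. In total 39 of the 47 genes were well above background on all 4 arrays, 5 were so on some arrays and 3 (Hist1h1t, Hist1h2bb and Hist3h2bb) on none. The 3 genes without a measurable signal on any array include Hist1h1t, the linker histone of developing sperm. Signals of 33 genes were above the brightest negative control spot of every array. Probes printed as 10 repeat spots gave a standard deviation of 0.0843 for a log2 ratio of single spots, which covers spot error only.

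The labels were first checked with Trp53, the gene that encodes p53. In WT MEFs it had a scaled signal of 0.592 before and 1.89 after doxorubicin, and in p53-/- MEFs of 0.235 before and 0.224 after it. Trp53 was thus lower on both p53-/- arrays, by 1.33 on the log2 scale without and by 3.08 with doxorubicin (log2 ratios of -1.33 and -3.08), and where the probe lies relative to the disrupted part of the gene is not given. All 13 fibroblast markers examined were well above background on the 4 arrays. With doxorubicin 6 of them were at least 2-fold lower in WT MEFs (median log2 ratio of -0.90, lowest -4.81 for Lum) and 2 in p53-/- MEFs (median of -0.29), and 0 were at least 2-fold higher. The summed scaled signal of 6 epithelial markers was 5.74 and 10.5 in WT and 5.37 and 17.9 in p53-/- MEFs, most of it from Krt18, and Epcam was not well above background on any array. For 8 leukocyte markers the sum was 15.91 and 20.04 in WT and 17.92 and 14.71 in p53-/- MEFs, most of it from Itgam. Of these 8, 6 and 7 were well above background in WT and 6 and 5 in p53-/- MEFs. For 4 endothelial markers the sum was 3.67 and 4.205 in WT and 2.92 and 2.33 in p53-/- MEFs, most of it from Kdr. Whether other cell types were present in the cultures was not tested. The part of the marker shifts in the histone results was not tested either. Of 6 markers of testis germ cells, Dazl and Acrv1 were not well above background on any array, and the summed scaled signal of the 6 was 0.311 and 0.464 in WT and 0.297 and 0.304 in p53-/- MEFs.

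The hairpin that marks these mRNAs could be read in the probes themselves. A stem of 6 base pairs that begins with GG, closed by a loop of 4 bases, was found whole in 5 histone probes and in part in another 2, at the edge of the probe. The whole hairpin was present in 9.80% of the histone probes and in 0.0786% of all 39429 probes. The 30 bases around it are shown for the 7 genes, because the place of the hairpin within the probe shows whether a probe reads RNA before or after it. They are written 5′ to 3′ in the sense of the probe as printed, with the hairpin bases in capitals.
Hist1h2ab: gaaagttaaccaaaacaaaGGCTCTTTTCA
Hist1h3a: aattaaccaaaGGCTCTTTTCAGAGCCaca
Hist1h3g: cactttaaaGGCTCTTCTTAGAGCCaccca
Hist1h3i: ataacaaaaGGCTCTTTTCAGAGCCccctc
Hist2h2bb: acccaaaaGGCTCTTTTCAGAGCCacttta
Hist2h2aa1: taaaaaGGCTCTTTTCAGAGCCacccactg
Hist1h2ae: CTTTTCAGAGCCattcacttaattcagtaa
In 4 of the 5 probes with the whole hairpin its sequence was identical, and Hist1h3g had another loop. The first 5 probes ended with the hairpin or up to 6 bases past it, whereas the probes of Hist2h2aa1 and Hist1h2ae continued for 38 and 48 bases past it.

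The first question was how doxorubicin changed these genes in WT MEFs. In doxorubicin-treated WT MEFs, 15 of the 40 measured histone genes were at least 2-fold higher and 6 were at least 2-fold lower than in untreated WT MEFs. Of all 17546 genes measured in this comparison, 11.0% were at least 2-fold higher and 10.4% at least 2-fold lower. The median log2 ratio of the histone genes was 0.41, against 0.01 for all genes. The classes did not move alike. The median log2 ratio was -1.64 for H1, -0.32 for H2A, 1.59 for H2B, 0.78 for H3 and 0.06 for H4, and that of H4 turned to -0.21 when the arrays were scaled to their medians. That of H1 turned to 0.32 over 6 genes without the filter on dim probes. That of H2A mixed genes whose probes share most of their bases, described below, with other genes. It was -0.43 for the 7 genes with such near-identical probes and 1.96 for the other 6 measured. In bulk RNA, fewer cells in S phase and less histone RNA per cell cannot be told apart.

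In p53-/- MEFs, 6 of the 40 measured histone genes were at least 2-fold higher with doxorubicin and 4 were at least 2-fold lower. Among all 16981 genes measured there, 9.24% were at least 2-fold higher and 6.89% at least 2-fold lower. The median log2 ratio of the histone genes was -0.19, with -0.62 for H1, -0.57 for H2A, 0.58 for H2B, -0.02 for H3 (0.07 over the 7 genes above the brightest negative control) and -0.25 for H4. The H2A median was -0.61 over the 7 genes with near-identical probes and 0.85 over the other 5 measured. The latter is the ratio of Hist1h2aa, whose untreated signal was under the brightest negative control of its array. Of the genes measured on all 4 arrays, Hist1h2be, Hist1h2bg, Hist3h2ba, Hist2h3c2 and Hist1h4i were at least 2-fold higher in both genotypes. Hist1h3g was so in p53-/- MEFs alone, and others in WT alone. Of these others, Hist3h2a, Hist1h2ae, Hist1h2aa and Hist2h2aa1 fell short of 2-fold in p53-/- MEFs with log2 ratios of 0.996, 0.90, 0.85 and 0.83. The rest ran from -0.45 (Hist1h1c) to 0.17 (Hist1h2bc). The overlap was not counted over all genes, so nothing was read from its size. Both Hist1h1e and Hist2h2bb were at least 2-fold lower in each genotype.

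**Figure D1:**
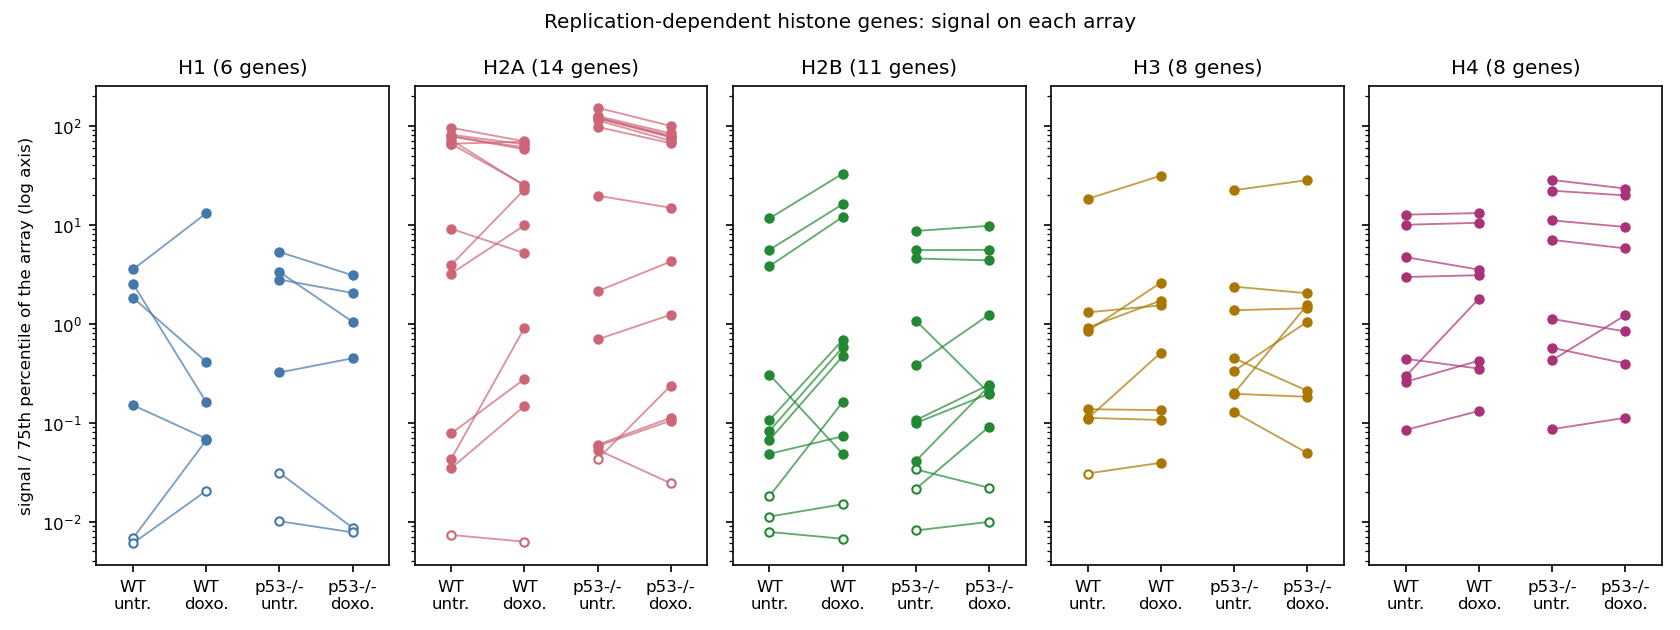
Scaled signal (signal divided by the 75th percentile of the array, log axis) of each histone gene in untreated (untr.) and doxorubicin-treated (doxo.) WT and p53-/- MEFs, with 1 panel for each class and a line joining the 2 arrays of a genotype. Filled points are well above background and open points are not. In WT MEFs 3 of the 4 measured H1 genes went down with doxorubicin and 7 of the 8 measured H2B genes went up, and the near-flat lines of H4 lay higher in p53-/- MEFs for most genes.

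The linker histones of class H1 bind the DNA between nucleosomes and help to fold chromatin. Hist1h1b (now H1f5; probe at chr13:21871923-21871982 of mm9) had scaled signals of 2.53 and 0.161 in WT and of 5.30 and 3.08 in p53-/- MEFs, here and below the untreated array first. The doxorubicin-treated WT array stood far below the other 3, with a 15.7-fold lower signal than untreated WT (log2 ratio of -3.98), while the signal in p53-/- MEFs was 1.72-fold lower (log2 ratio of -0.79). Hist1h1e was lower in both genotypes, with scaled signals of 1.83 and 0.411 in WT and of 3.33 and 1.04 in p53-/- MEFs (4.45-fold and 3.19-fold lower). Hist1h1a had scaled signals of 0.150 and 0.0688 in WT and of 0.321 and 0.447 in p53-/- MEFs. Its signal with doxorubicin was therefore lower in WT (log2 ratio of -1.12, or -0.78 with normexp background correction) and higher in p53-/- MEFs (log2 ratio of 0.48).

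Hist1h1c (now H1f2; probe at chr13:23832018-23832077 of mm9) went up with doxorubicin in WT MEFs, where the other 3 measured H1 genes went down. It had scaled signals of 3.53 and 13.1 in WT and of 2.79 and 2.04 in p53-/- MEFs. With doxorubicin it was 3.69-fold higher in WT, above all other arrays, and 1.37-fold lower in p53-/- MEFs. Hist1h1d, another somatic linker histone, was well above background only on the doxorubicin-treated WT array, at least 2.43-fold higher than in untreated WT.

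The difference between both responses, taken as the log2 ratio in WT minus that in p53-/- MEFs, was -3.19 for Hist1h1b, -1.60 for Hist1h1a, -0.48 for Hist1h1e and 2.33 for Hist1h1c. For the spot error alone a standard deviation of 0.119, from the same median of variances, applies to such a difference. Over all classes 13 of 39 histone genes had a difference of 1 or above and 4 a difference of -1 or below, where all 16538 genes measured on the 4 arrays gave 8.38% and 9.86%. The 4 below were Hist1h1b, Hist1h3g, Hist1h1a and Hist2h3c2.

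**Figure D2:**
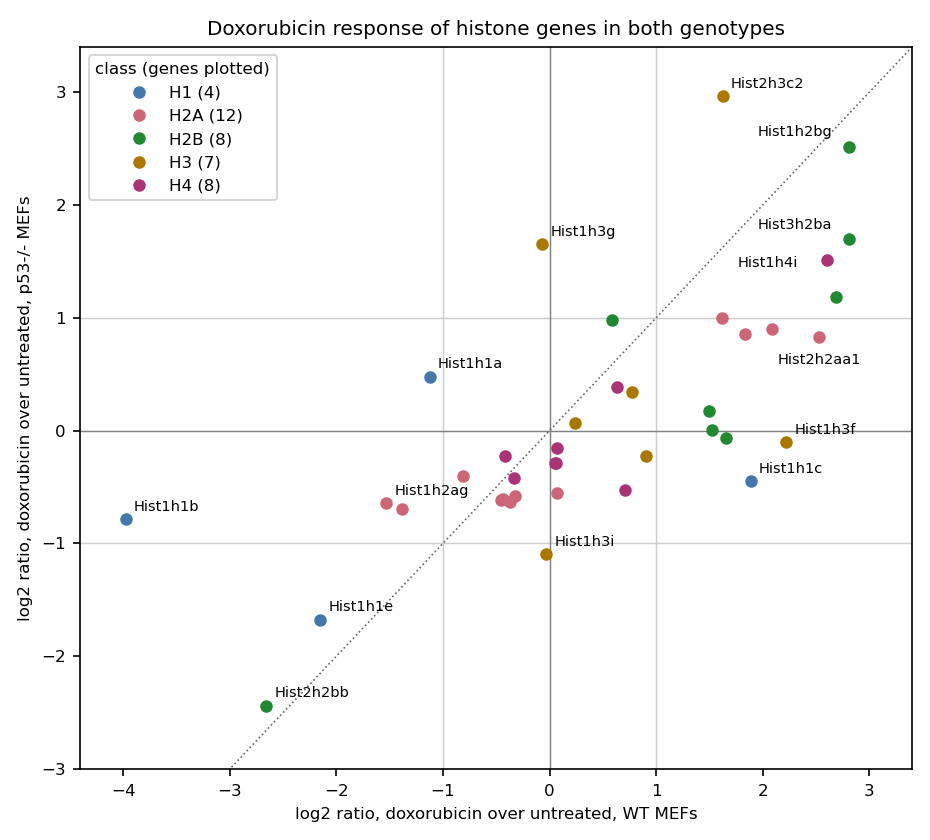
Log2 ratio of doxorubicin-treated over untreated MEFs for the 39 histone genes measured on all 4 arrays, WT on the horizontal and p53-/- on the vertical axis, colored by class, with some genes named. Grey lines mark 2-fold and the dotted line marks equal responses. Most points lie below the dotted line, where the log2 ratio was larger in WT (28 of 39 genes), and Hist1h1b and Hist1h1a stand to the left of it. Among all genes measured on the 4 arrays, the log2 ratio was larger in WT for 8422 of 16538. The 28 include H2A genes with near-identical probes, whose signals cannot be told apart.

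Histone H2A pairs with H2B in the outer part of the nucleosome core. The H2A genes fell into 2 sets by their probes. The probes of 7 genes (Hist1h2af, Hist1h2ag, Hist1h2ah, Hist1h2ak, Hist1h2an, Hist2h2aa2 and Hist2h2ac) lay in nearly the same end of the coding sequence, and each shared at least 40 of 60 bases with probes of several of the others. For 5 of them the probe is shown, with the bases that differ from the probe of Hist1h2af, aligned end to end or shifted to the best match, in capitals. The first 6 bases of the Hist1h2ah probe lie outside the overlap, so they were not compared and are in lower case.
Hist1h2af: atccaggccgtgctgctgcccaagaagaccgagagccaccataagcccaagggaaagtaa
Hist1h2ah: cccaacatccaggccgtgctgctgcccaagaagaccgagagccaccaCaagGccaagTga
Hist1h2ak: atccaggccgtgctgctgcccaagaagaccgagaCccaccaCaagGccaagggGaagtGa
Hist1h2an: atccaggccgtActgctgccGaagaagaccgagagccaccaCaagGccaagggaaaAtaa
Hist2h2aa2: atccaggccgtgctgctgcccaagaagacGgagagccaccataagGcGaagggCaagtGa
The probes of Hist1h2ak, Hist1h2an and Hist2h2aa2 each matched that of Hist1h2af at 55 bases, and the probe of Hist1h2ah matched it at 51. The probes of Hist1h2ah, Hist2h2aa2 and Hist2h2ac were also near-identical to that of H2afj, a replication-independent H2A gene outside the clusters with scaled signals of 84.9 and 89.5 in WT and of 119 and 83.2 in p53-/- MEFs. RNA from one of these genes could bind probes of the others, so their signals cannot be told apart by gene.

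In WT MEFs their scaled signals ran from 65.7 to 95.5 before and from 24.8 to 69.7 after doxorubicin. In p53-/- MEFs they ran from 97.4 to 152 before and from 66.5 to 99.5 after it. In WT MEFs their log2 ratios with doxorubicin ran from -1.53 for Hist1h2ag to 0.07 for Hist2h2aa2, with a median of -0.43. Those of p53-/- MEFs lay close together, from -0.69 to -0.55. The lowest in WT were Hist1h2ag (scaled signals of 71.9 and 24.8, 2.89-fold lower) and Hist1h2an (65.7 and 25.2, 2.61-fold lower). In p53-/- MEFs these genes had 119 and 76.3, and 114 and 70.2. The second probe of Hist1h2ak, which lay apart from its first within a span of 393 bases, gave a log2 ratio of -1.71 in WT, against -0.43 for the first.

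Among the other H2A genes, 5 of the 6 that were measured were at least 2-fold higher in doxorubicin-treated WT MEFs. Hist2h2aa1 (now H2ac18; probe at chr3:96049949-96050008 of mm9), whose probe continues past the hairpin, had scaled signals of 3.93 and 22.6 in WT and of 0.693 and 1.23 in p53-/- MEFs. Both WT arrays were above both p53-/- arrays, and doxorubicin-treated signals were 5.76-fold higher in WT and 1.78-fold higher in p53-/- MEFs. The probe named Hist2h2aa2, placed just before it on the same strand, had log2 ratios of 0.07 and -0.55. That probe can bind RNA of other H2A genes. Hist1h2ac was near background without doxorubicin, with scaled signals of 0.0429 and 0.906 in WT (21.1-fold higher, a log2 ratio of 4.40 that was 3.37 with normexp background correction) and of 0.237 in doxorubicin-treated p53-/- MEFs, where it was at least 5.54-fold higher than in the untreated cells. The untreated WT signal of Hist1h2ac was under the brightest negative control of its array.

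Hist1h2ae, the other gene whose probe lies past the hairpin, had scaled signals of 0.0346 and 0.147 in WT and of 0.0598 and 0.112 in p53-/- MEFs, 4.25-fold and 1.87-fold higher with doxorubicin, with both untreated signals under the brightest negative control. Hist3h2a was 3.07-fold higher in WT (scaled signals of 3.21 and 9.84), and its log2 ratio of 0.996 in p53-/- MEFs (scaled signals of 2.13 and 4.25) fell just short of 2-fold. Hist1h2aa, an H2A form known from the testis, was 3.55-fold higher in WT and 1.81-fold higher in p53-/- MEFs. Its untreated p53-/- signal was under the brightest negative control of that array. Hist1h2ab, with a probe that ends at the start of the hairpin, was the exception, with scaled signals of 9.09 and 5.17 in WT and of 19.6 and 14.8 in p53-/- MEFs (log2 ratios of -0.81 and -0.40). Hist2h2ab was well above background only in untreated p53-/- MEFs.

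The H2B genes gave the highest class median in each genotype, although in p53-/- MEFs their median fell to 0.0090 over the 5 genes above the brightest negative control, where that of H3 was 0.07. This ranking also rests on the near-identical H2A probes. The H2A genes without them had medians of 1.96 in WT and 0.85 in p53-/- MEFs, above 1.59 and 0.58 for H2B. In WT MEFs 6 of the 8 measured H2B genes were at least 2-fold higher with doxorubicin, 1 was at least 2-fold lower, and Hist2h2be had a log2 ratio of 0.59 (scaled signals of 0.0483 and 0.0726 in WT and of 0.0990 and 0.196 in p53-/- MEFs). Hist1h2bc, Hist1h2bm and Hist1h2ba were over 2-fold higher with doxorubicin in WT MEFs and changed by less than 2-fold in p53-/- MEFs. The scaled signal of Hist1h2bc was 11.6 and 32.8 in WT and 8.64 and 9.75 in p53-/- MEFs. For Hist1h2bm it was 5.57 and 16.1 in WT and 5.54 and 5.57 in p53-/- MEFs. For Hist1h2ba, which encodes a testis form of H2B, it was 3.81 and 12.0 in WT and 4.56 and 4.36 in p53-/- MEFs. In each of these genes the doxorubicin-treated WT array stood alone above 3 arrays of similar signal. With doxorubicin they were 2.83-fold, 2.88-fold and 3.14-fold higher in WT, and their log2 ratios in p53-/- MEFs were 0.17, 0.01 and -0.06. Among the germ cell markers, Prm1, Prm2 and Tnp1 also had their highest signals on the doxorubicin-treated WT array (log2 ratios of 1.38, 0.91 and 1.58 in WT), whereas Ddx4 had its lowest there (-1.73). Their part in the result of Hist1h2ba was not tested.

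Another set of H2B genes was higher with doxorubicin in both genotypes. Hist1h2bg had scaled signals of 0.0666 and 0.467 in WT and of 0.0409 and 0.234 in p53-/- MEFs, with log2 ratios of 2.81 and 2.52 and a difference of 0.29. Its untreated p53-/- signal was under the brightest negative control of that array, and its p53-/- log2 ratio was 1.71 with normexp. Hist3h2ba had 0.0821 and 0.575 in WT and 0.380 and 1.23 in p53-/- MEFs, with log2 ratios of 2.81 and 1.70. Hist1h2be was 6.45-fold higher in WT and 2.28-fold higher in p53-/- MEFs (under 2-fold with normexp, 0.92 on the log2 scale, and with scaling to the median, 0.89), and Hist1h2bp, which was not well above background without doxorubicin, was at least 5.90-fold and at least 2.95-fold higher.

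Hist2h2bb (now H2bc18; probe at chr3:96074056-96074115 of mm9) was the H2B gene that went down. Its probe ends 6 bases past the hairpin, and its scaled signals were 0.306 and 0.0485 in WT and 1.07 and 0.198 in p53-/- MEFs. With doxorubicin it was 6.31-fold lower in WT and 5.41-fold lower in p53-/- MEFs, and the responses differed by -0.22.

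**Figure D3:**
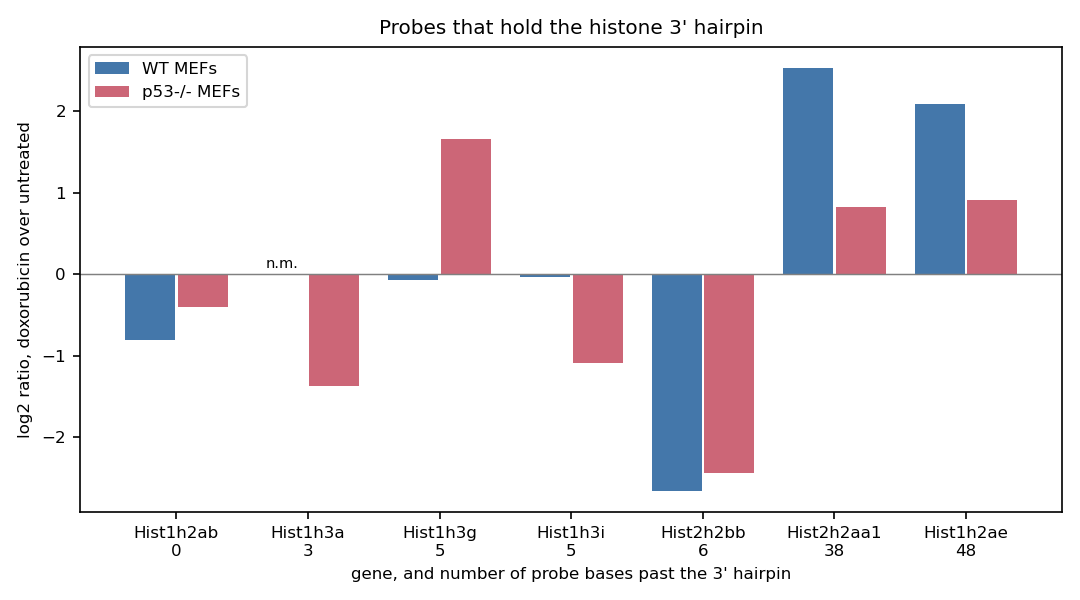
Log2 ratio of doxorubicin-treated over untreated MEFs (bars, WT and p53-/-) for the 7 genes whose probe holds the whole or part of the 3′ hairpin, ordered by the number of probe bases past it; n.m., not measured because untreated WT was not well above background. Bars of both genotypes point up for Hist2h2aa1 and Hist1h2ae, with 38 and 48 bases past the hairpin, and among the other 5 only the p53-/- bar of Hist1h3g does.

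Histone H3 forms the center of the nucleosome with H4. With doxorubicin, the 7 H3 genes measured in WT MEFs had log2 ratios between -0.07 and 2.22, so 0 of them were 2-fold lower. Hist1h3f had scaled signals of 0.109 and 0.508 in WT and of 0.195 and 0.182 in p53-/- MEFs, 4.65-fold higher in WT and 1.07-fold lower in p53-/- MEFs. Its probe shared 45 bases with that of Hist1h3c, which had scaled signals of 1.3 and 1.53 in WT and of 1.37 and 1.43 in p53-/- MEFs, with log2 ratios of 0.23 for WT and 0.07 for p53-/- MEFs. Hist2h3c2 had scaled signals of 0.841 and 2.59 in WT and of 0.198 and 1.54 in p53-/- MEFs. It was 3.08-fold higher in WT and 7.79-fold higher in p53-/- MEFs, the largest ratio of a histone gene measured in p53-/- MEFs. Hist2h3c1, with scaled signals of 0.910 and 1.71 in WT and of 2.36 and 2.03 in p53-/- MEFs, had a log2 ratio of 0.91 in WT and of -0.22 in p53-/- MEFs, and Hist1h3d of 0.78 and 0.34.

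The H3 genes whose probes hold the hairpin behaved differently from one another. Hist1h3g had scaled signals of 0.112 and 0.106 in WT and of 0.332 and 1.04 in p53-/- MEFs, so that only p53-/- MEFs showed a higher signal with doxorubicin (3.14-fold). Hist1h3i had 0.137 and 0.133 in WT and 0.448 and 0.210 in p53-/- MEFs, 2.14-fold lower with doxorubicin in p53-/- MEFs. The 2 WT arrays of each gene were nearly equal, and the p53-/- arrays went apart in opposite directions. Hist1h3a was well above background on 3 arrays, under the brightest negative control on all, and 2.59-fold lower with doxorubicin in p53-/- MEFs.

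The H4 genes stayed close to their untreated signals in both genotypes, except Hist1h4i. Hist1h4i had scaled signals of 0.294 and 1.79 in WT and of 0.427 and 1.22 in p53-/- MEFs, 6.09-fold and 2.84-fold higher with doxorubicin. Its second probe, within the same 520 bases, gave 5.58-fold and 2.16-fold. The other 7 H4 genes had log2 ratios from -0.42 (Hist1h4d) to 0.71 (Hist1h4c) in WT and from -0.53 (Hist1h4c) to 0.38 (Hist1h4h) in p53-/- MEFs. The scaled signals of Hist1h4d were 4.70 and 3.52 in WT and 11.1 and 9.48 in p53-/- MEFs, and those of Hist1h4j were 0.441 and 0.351 in WT and 1.12 and 0.834 in p53-/- MEFs. Both genes were lowest on the doxorubicin-treated WT array. Hist1h4c had 0.258 and 0.423 in WT and 0.571 and 0.395 in p53-/- MEFs. Hist1h4k had scaled signals of 12.6 and 13.1 in WT and of 28.3 and 23.2 in p53-/- MEFs, and its second probe gave log2 ratios of 0.12 and -0.27. The probe of Hist1h4c and the second probe of Hist1h4k shared 52 of 60 bases, and the probes of Hist1h4d and Hist1h4j were close to both, so these H4 signals cannot be fully told apart by gene.

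What the probes share was then compared across all classes. For the 12 genes with a near-identical probe of another histone gene, the median of the WT responses to doxorubicin was -0.35 (log2), and 1 gene was at least 2-fold higher and 2 were lower. For the other 35 genes, of which 28 were measured, the median was 1.20, with 14 higher and 4 lower. Over all genes measured in WT, 11.0% were at least 2-fold higher and 10.4% at least 2-fold lower. Nothing was read from the counts among the 12 genes or from the 4 lower ones. The corresponding p53-/- medians were -0.57 and 0.26. A poly(A) signal (AATAAA or ATTAAA, on the probe strand) was present in 4 histone probes, those of Hist1h2be, Hist3h2ba, Hist1h4i and Hist1h2ag, and in 16.7% of all probes. The first 3 were at least 2-fold higher with doxorubicin in both genotypes and Hist1h2ag was at least 2-fold lower in WT. A match to these letters is a description of the probe, and whether it served as a poly(A) site was not tested.

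The next question was how the genotypes differed without doxorubicin. Most histone genes had a higher signal in p53-/- MEFs: of 39 measured genes, 31 had a log2 ratio of p53-/- over WT above 0, 15 were at least 2-fold higher and 2 were at least 2-fold lower. Of all 17317 genes measured in this comparison, 8612 had a log2 ratio above 0, 2.15% were at least 2-fold higher and 2.62% at least 2-fold lower. The median log2 ratio was 0.73 over the histone genes, and -0.0028 over all genes. By class it was 0.97 for H1, 0.63 for H2A, 0.13 for H2B, 0.84 for H3 and 1.15 for H4. The 7 H2A genes with near-identical probes had a median of 0.63, and the other 5 measured had one of -0.42.

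In untreated cells 6 of the 8 H4 genes were at least 2-fold higher in p53-/- MEFs, with log2 ratios of 1.14 for Hist1h4c and Hist2h4, 1.16 for Hist1h4k, 1.23 for Hist1h4d, 1.25 for Hist4h4 and 1.34 for Hist1h4j. The scaled signal of Hist4h4 was 2.96 in untreated WT and 7.03 in untreated p53-/- MEFs, and that of Hist1h4d was 4.70 and 11.1. Hist1h4i and Hist1h4h had log2 ratios of 0.54 and 0.02. The second probe of Hist2h4 was not well above background on either array, and its mean with the bright probe gave a log2 ratio of -0.37 in place of 1.14.

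Of the other classes, the largest untreated ratios of p53-/- over WT were 2.21 for Hist3h2ba and 1.81 for Hist2h2bb on the log2 scale, followed by 1.72 for Hist1h3i and 1.57 for Hist1h3g. Hist1h3a was at least 4.17-fold higher in p53-/- MEFs. The exceptions, at least 2-fold lower in p53-/- MEFs, were both in the Hist2 cluster on chromosome 3. Hist2h2aa1, whose probe continues past the hairpin, was 5.67-fold lower and Hist2h3c2 was 4.24-fold lower, whereas their neighbor Hist2h3c1 was 2.60-fold higher. The probe named Hist2h2aa2 is placed just before that of Hist2h2aa1 on the same strand (chr3:96049837-96049896 of mm9). It was 1.48-fold higher, although it can bind RNA of other H2A genes. The 5.67-fold value thus describes RNA that runs past the hairpin, and not all RNA of the gene.

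With doxorubicin, 12 of the 42 measured histone genes were at least 2-fold higher and 10 at least 2-fold lower in p53-/- than in WT MEFs, against 11.9% and 10.3% of all 17922 genes. This comparison shares its arrays with those above, and its ratios follow from them. The median log2 ratios were 2.02 for H1, 0.36 for H2A, -0.996 for H2B, 0.08 for H3 and 0.86 for H4. Without the filter on dim probes that of H1 was -0.03 over 6 genes, so its direction rests on the filter. That of H3 turned to -0.10 over the 7 genes above the brightest negative control and to -0.04 with normexp background correction, and that of H4 was 0.39 where the probes of a gene were averaged. The H2A median was 0.46 over the 7 genes with near-identical probes and -1.31 over the other 6 measured. Hist1h1b was 19.1-fold higher in p53-/- MEFs (scaled signals of 3.08 against 0.161), Hist1h3g 9.84-fold and Hist1h1a 6.49-fold. Hist2h2aa1, read past the hairpin, was 18.4-fold lower (1.23 against 22.6) and Hist1h1c 6.39-fold lower (2.04 against 13.1). Hist1h2bc was 3.36-fold lower, Hist1h2bm 2.89-fold, Hist1h2ba 2.75-fold and Hist1h2be 2.83-fold lower.

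**Figure D4:**
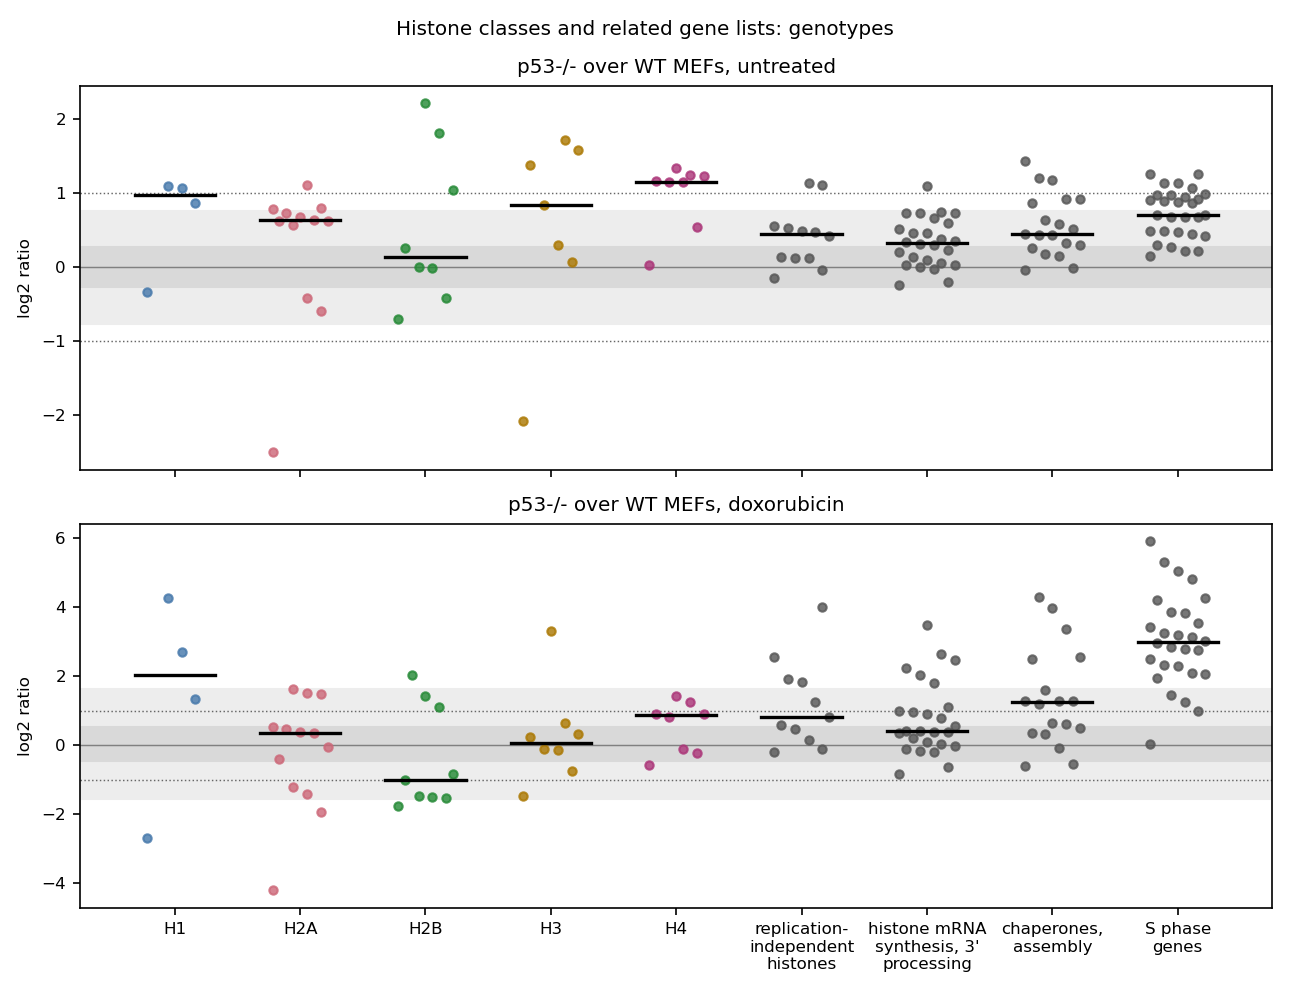
Log2 ratio of p53-/- over WT MEFs without (top) and with doxorubicin (bottom) for each measured gene of the 5 histone classes and 4 related lists; black bars are medians, dotted lines mark 2-fold, and the grey bands show the spread of all genes (dark, between the quartiles; light, between the 5th and 95th percentiles). Without doxorubicin the H4 median of 1.15 was the highest among the classes, and with doxorubicin the medians of H1 (2.02, or -0.03 without the filter on dim probes) and H2B (-0.996) lay on opposite sides of 0 for measured genes.

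The histone genes were next set beside genes with related roles, from lists chosen with earlier results of these data known. The S phase list held genes of DNA replication and nucleotide supply. In WT MEFs 20 of the 28 measured S phase genes were at least 2-fold lower with doxorubicin and 0 were at least 2-fold higher, and their median log2 ratio was -1.97. The thymidine kinase gene Tk1 (-4.301) and the helicase subunit genes Mcm5 (-3.49) and Mcm3 (-3.45) were among them. In p53-/- MEFs 6 of the 29 were at least 2-fold higher and 1 was lower, with a median of 0.53. For this list and the next, the shares over all genes were 11.0% higher and 10.4% lower in WT. In p53-/- MEFs they were 9.24% and 6.89%. Among the histone genes, by contrast, the 6 that were at least 2-fold lower in WT stood beside 15 that were higher, and the lowest was Hist1h1b at -3.98. The part of the S phase genes' lower signal in that of the 6 histone genes was not tested. Without doxorubicin both sets were higher in p53-/- MEFs, with medians of 0.71 for the S phase genes and 0.73 for the histone genes.

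The genes of the replication-independent list lie outside these clusters. Most give polyadenylated mRNAs and are less tied to S phase, although H2afx can also give an mRNA that ends in the hairpin and Cenpa is known for expression late in the cell cycle. In WT MEFs 7 of 12 were at least 2-fold lower with doxorubicin and 0 were higher, with a median log2 ratio of -1.11. The lowest were the centromeric H3 gene Cenpa (-2.19), the linker histone gene H1f0 (-2.07) and the H2A.Z gene H2afz (-1.51). The H3.3 genes H3f3a and H3f3b had log2 ratios of -0.35 and 0.66. In p53-/- MEFs no gene of the 11 measured on both arrays passed 2-fold in either direction, and their median was -0.20. H1f0 was not among the 11, since it was not well above background with doxorubicin, and was at least 4.46-fold lower there.

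Of the genes for histone mRNA synthesis and 3′ end processing, 1 of 26 was at least 2-fold higher and 4 were at least 2-fold lower in doxorubicin-treated WT MEFs, and 3 were higher and 0 lower in p53-/- MEFs. Slbp, which encodes the protein that binds the histone hairpin, had a log2 ratio of -0.58 in WT and one of 1.08 in p53-/- MEFs. Lsm11, a subunit of the U7 particle that cuts histone mRNA, had -1.22 and -0.83, and Casp8ap2, a factor of the histone locus body, had -1.18 and 0.94. Ccne1 and Cdk2, a cyclin and a kinase that start S phase, had -2.77 and -1.21 in WT and 0.25 and 0.17 in p53-/- MEFs. Ccne2, another cyclin gene of this list, went the other way in WT and is not among the 26. It was well above background only on the doxorubicin-treated WT array, at least 3.51-fold higher than in untreated WT. Nfyb, a subunit of the factor that binds CCAAT, had 1.42 and 0.55. Of the histone chaperones, 6 of 18 were at least 2-fold lower in WT and 0 were higher, among them Asf1b (-2.54), Hat1 (-2.20) and Chaf1a (-1.96), which had 0.54, 0.26 and 0.59 in p53-/- MEFs.

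**Figure D5:**
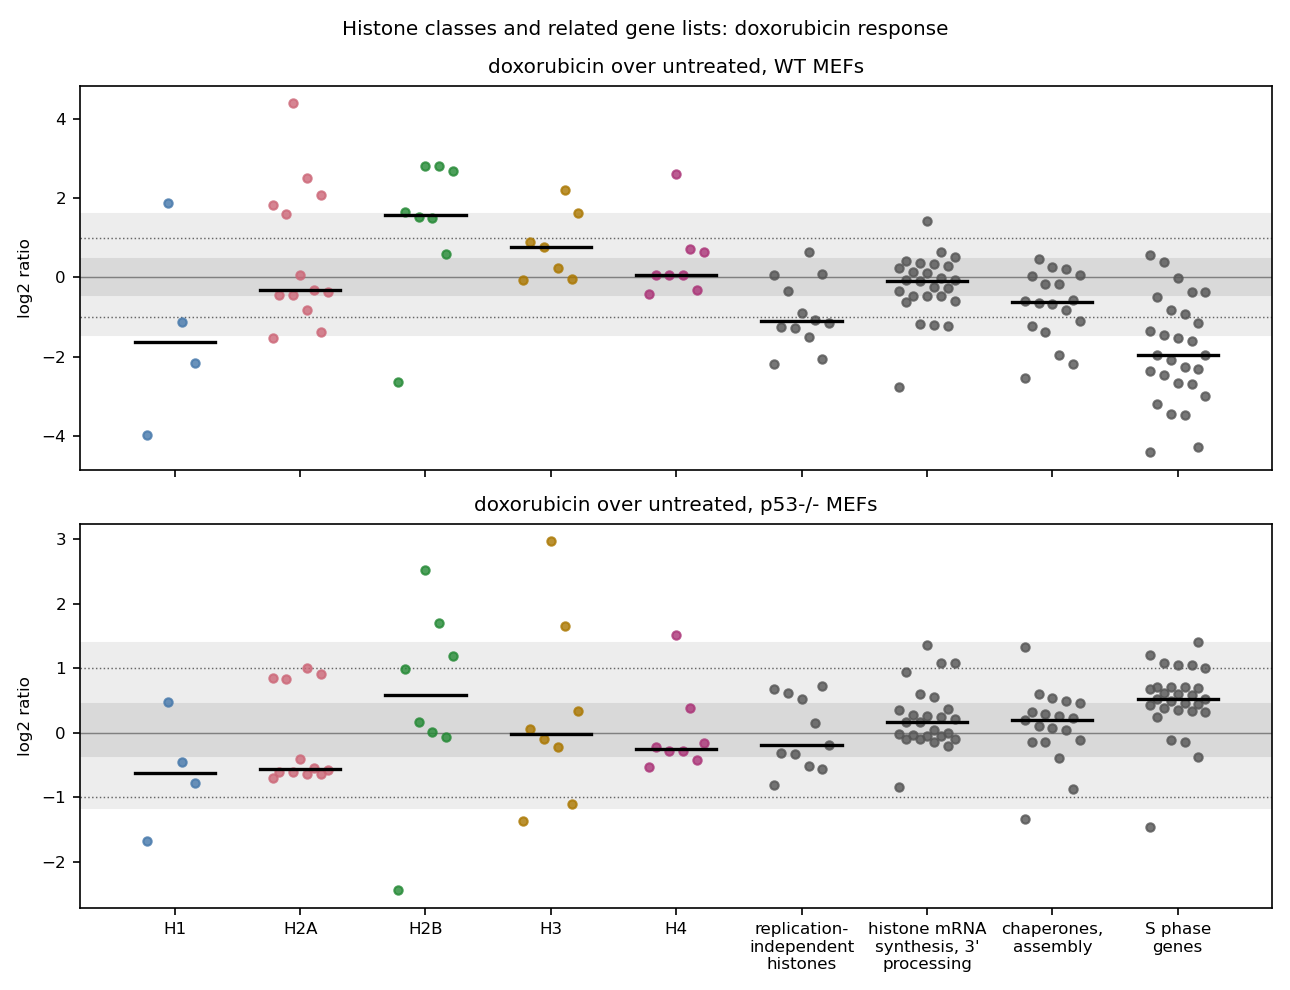
Log2 ratio of doxorubicin-treated over untreated WT (top) and p53-/- MEFs (bottom) for each measured gene of the 5 histone classes and 4 related lists, drawn as in the plot of the genotypes, with bars for medians and grey bands for all genes. In WT MEFs the S phase genes centered on -1.97 and the H2B genes on 1.59, and in p53-/- MEFs these medians were 0.53 and 0.58.

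Where genes lie next to each other in the clusters, an H2A and an H2B gene can be transcribed away from each other from a shared stretch of DNA. Hist1h2ae and Hist1h2bg, with probes 1274 bases apart on opposite strands, had log2 ratios with doxorubicin of 2.09 and 2.81 in WT and of 0.90 and 2.52 in p53-/- MEFs. Hist1h2ba and Hist1h2aa, with probes 597 bases apart, had 1.65 and 1.83 in WT and -0.06 and 0.85 in p53-/- MEFs. The upstream regions of each pair overlapped, by 179 and 220 bases, and in both pairs the genes were higher together in WT. The untreated p53-/- signals of Hist1h2ae, Hist1h2bg and Hist1h2aa were under the brightest negative control of that array, that of Hist1h2ae also in WT. A pair with overlapping upstream regions that went apart was Hist1h2an and Hist1h2bp (239 bases). In WT the signal of Hist1h2an was lower with doxorubicin (log2 ratio of -1.38) and that of Hist1h2bp at least 5.90-fold higher, and in p53-/- MEFs they had a log2 ratio of -0.69 and an at least 2.95-fold higher signal, with the limit that the probe of Hist1h2an can bind RNA of other H2A genes. For Hist3h2bb and Hist3h2a, whose probes lie 986 bases apart, 1 gene was measured.

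For 41 of the 47 genes the 250 bases upstream of the start site were available from RefSeq (build GRCm38.p6). Motifs were searched as exact letters on both strands. CCAAT was found in 82.9% of the histone promoters and in 34.5% of all 27025 promoters, TATAAA in 51.2% and 13.0%, and the octamer ATTTGCAT in 29.3% and 1.61%. The octamer was found in 7 of the 14 H2A and 5 of the 8 H2B promoters and in 0 of those of H1, H3 and H4. CCAAT was in all 6 H1, all 14 H2A and all 8 H2B promoters, in 4 of 6 of H3 and 2 of 7 of H4. The promoters of Hist1h1b, Hist1h1c and Hist1h2bm are shown because the first went down most in WT MEFs and the others went up there and not in p53-/- MEFs, with the motifs in capitals on the strand of the gene (ATTGG is CCAAT on the other strand), and these matches do not overlap.
Hist1h1b (chr13:21780626-21780875, minus strand): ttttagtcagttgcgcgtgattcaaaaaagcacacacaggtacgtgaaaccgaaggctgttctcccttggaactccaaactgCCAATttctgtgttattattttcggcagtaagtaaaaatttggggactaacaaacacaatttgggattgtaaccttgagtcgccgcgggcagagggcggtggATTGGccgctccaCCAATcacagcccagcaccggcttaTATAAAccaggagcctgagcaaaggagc
Hist1h1c (chr13:23738557-23738806, plus strand): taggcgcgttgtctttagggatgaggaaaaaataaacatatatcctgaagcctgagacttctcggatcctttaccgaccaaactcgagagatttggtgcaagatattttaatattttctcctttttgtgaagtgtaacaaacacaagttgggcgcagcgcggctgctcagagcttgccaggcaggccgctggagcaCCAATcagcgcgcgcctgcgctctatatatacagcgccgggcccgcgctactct
Hist1h2bm (chr13:21721794-21722043, plus strand): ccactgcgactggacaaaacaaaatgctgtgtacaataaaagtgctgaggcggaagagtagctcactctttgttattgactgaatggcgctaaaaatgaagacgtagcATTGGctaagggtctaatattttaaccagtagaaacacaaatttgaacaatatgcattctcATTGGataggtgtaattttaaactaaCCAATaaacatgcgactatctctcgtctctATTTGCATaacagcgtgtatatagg
Hist1h1b held 3 CCAAT matches and a TATAAA match. Hist1h1c held 1 CCAAT match and no TATAAA, and Hist1h2bm 3 CCAAT matches and the octamer. The same motif was thus present before genes that went down and before genes that went up, and nothing was drawn from a match about the binding of a factor.

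The readings had limits of signal that touch the dimmer genes. A scaled signal of 1 stood for signals of 2074 and 1819 on the WT arrays and of 1881 and 2421 on the p53-/- arrays. The brightest negative control spots were at 108 and 77.5 on the WT arrays and at 250.1 and 120 on the p53-/- arrays. The untreated p53-/- array had the brightest negative control, and 7 of the 40 ratios in p53-/- MEFs with doxorubicin and 6 of the 39 ratios between the untreated arrays rest on a signal at or under the brightest negative control of its array, against 3 of 40 in WT. Among the genes at least 2-fold higher with doxorubicin in p53-/- MEFs, Hist1h2be and Hist1h2bg are of this kind. So are Hist1h2aa, Hist1h2ae, Hist2h2be and Hist1h4h, which were higher there by less than 2-fold, and Hist1h3a, which was lower.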

How the data were processed

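Gene expression was measured in untreated and doxorubicin-treated MEFs of both genotypes, on 1 array each. The authors labeled cRNA with Cy3 after oligo-dT priming. Per the file headers, Agilent Feature Extraction (version 10.7.3.1) produced the deposited spot intensity, which is background-subtracted and detrended but was not made comparable between arrays. Deposited flags, coded 0 or 1 by this software, mark spots well above background, saturated or outliers; 0 spots were saturated, and no histone spot was an outlier. The authors' deposited table of all arrays equaled these intensities at 100% of the spots. Their fold changes (Subio Platform) were not used. Probe positions are mm9.

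Outlier spots were dropped, repeat spots were averaged on the log2 scale, and each array was set to its own 75th percentile (Python 3.11.15, numpy 2.4.6, pandas 2.3.3). Where a gene had several probes, the one of highest mean was taken. Ratios required the flag on the arrays compared. With the flag on 1 array, the fold was bounded by the higher of the probe's own signal and the lowest signal well above background on the other (56.7 and 44.3 for untreated and treated WT, 57.9 and 87.1 for p53-/- MEFs). Counts used 2-fold, with no test. Probes were near-identical where 40 of 60 bases matched. All 47 genes could be named, with the signals of those with the 2 largest and 2 smallest WT ratios, and differences of ratios, of a class. The genes and lists were chosen with earlier results of these data known. As alternatives, arrays were scaled to the median or by quantiles, background was corrected by normexp (limma 3.58.1, offset 50), dim probes were filtered in 3 other ways, probes of a gene were averaged, the deposited table was used, and a 1.5-fold threshold was applied. The steps were tested on simulated data.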

Additional observations from a re-analysis of the deposited data

Results flagged for a closer look

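Among the histone genes measured on all arrays, 2 linker histone genes had doxorubicin responses of opposite sign in the genotypes, at least 2-fold in WT MEFs and at least 2 standard deviations of the spot error in p53-/- MEFs. The log2 ratio of Hist1h1a was -1.12 in WT and 0.48 in p53-/- MEFs, a difference of -1.60. That of Hist1h1c was 1.89 in WT and -0.45 in p53-/- MEFs, a difference of 2.33. Signs were opposite under each of 8 alternatives for both genes, and the WT ratio of Hist1h1a was -0.78 with normexp. With 1 array per condition the difference between the genotypes was not tested.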

How the results depend on the processing

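The median log2 ratio of the histone genes in WT MEFs, 0.41, was 0.14 with scaling to the array median, 0.25 with quantile normalization, 0.23 with genes well above background on all arrays and 0.069 with genes above the brightest negative control. In p53-/- MEFs the median of -0.19 was -0.49 with the array median and -0.29 above the brightest negative control. Scaling to the median moved the all-gene median to -0.27 for WT and to -0.30 for p53-/- MEFs; all genes at least 2-fold higher and lower then numbered 1321 and 2797 in WT (1935 and 1831 before) and 956 and 2104 in p53-/- MEFs (1569 and 1170 before), and the histone genes 15 and 7 in WT and 5 and 5 in p53-/- MEFs. At 1.5-fold, 11 histone genes were higher and 10 lower in p53-/- MEFs with doxorubicin, and 24 were higher and 4 lower in untreated p53-/- than WT MEFs. With doxorubicin, the median of p53-/- over WT, 0.29, was 0.14 with normexp and 0.10 where probes of a gene were averaged. The median difference of responses, 0.29, was 0.44 with no filter on dim probes; without that filter the H1 median in WT was 0.32 over 6 genes. The ratio of Hist2h4 between untreated p53-/- and WT MEFs, 1.14, reversed to -0.37 with the mean of its probes, of which 1 was not above background. Of 87 single-gene values of at least 2-fold (log2 ratios of all comparisons and differences of responses), this was the 1 that changed sign under any of 8 alternatives that could give it. With normexp 6 of them moved by over 1.5 times and 8 fell under 2-fold: in WT with doxorubicin Hist1h2ac was 3.37, Hist1h2ae 1.27 and Hist2h2bb -1.81, and in p53-/- MEFs Hist1h2bg was 1.71 and Hist1h2be 0.92 (0.89 with the array median). Between genotypes with doxorubicin Hist1h1a was 2.11, Hist2h2bb 1.26 and Hist2h2be 0.92 with normexp. No paired analysis was possible because each condition had 1 array. All arrays were on 1 slide, so slide as a block was not run. Array number and the signal over background limit the precision.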
